A study of Mus musculus with 12 samples.

Results

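The 10 genes described here are the main heat shock chaperones of mouse cells, and they were followed in hair follicle stem cells with and without the transcription factor FOXC1. They are Hspa1a, Hspa1b, Hspa8, Hsph1, Hsp90aa1, Hsp90ab1, Dnaja1, Dnajb1, Hspd1 and Hspe1, and they were found by symbol among 23735 gene models, each on 1 row. The set was chosen by measured values, namely the pooled level of Dnaja1, which was larger in 1 kind of Foxc1 knockout than in its control and smaller in the other kind. The values of these 2 knockout comparisons therefore stand as a description with no test, and so does Dnaja1 throughout.

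Chaperones bind unfolded stretches of other proteins and use ATP to help them fold. HSP70 proteins (Hspa1a, Hspa1b, Hspa8) take their clients from J-domain proteins (Dnaja1, Dnajb1) and are reset by nucleotide exchange factors such as Hsph1. HSP90 proteins (Hsp90aa1, Hsp90ab1) receive partly folded kinases and steroid receptors, and Hspd1 with its lid Hspe1 forms the folding chamber of mitochondria. Hspa8 and Hsp90ab1 are made in nearly all cells, whereas Hspa1a and Hspa1b are the classical genes that heat shock factor 1 switches on under stress. Hair follicle stem cells lie in the bulge of the follicle, where they rest in telogen and divide for a while in anagen.

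Messenger RNA of stem cells sorted from mouse back skin was sequenced in 12 libraries of 7 groups. In anagen, at postnatal day 30, the inducible knockout (iKO) was FOXC1-Sox9CreER-iKO and its control FOXC1-Sox9CreER-heterozygous (Het), with 2 libraries each from males of a Black Swiss and C57BL/6 mixture. In the second telogen, FOXC1-K14Cre-cKO cells (cKO, 2 libraries) and wild type cells (WT, 2 libraries) were of the Black Swiss strain, 1 library of each from a male aged 42 days and 1 from a female aged 46 days. The telogen iKO group had 2 libraries from males at day 60 of the mixed strain. Cells of Shh-Het Agouti females gave 1 library in anagen II, at about day 26, and 1 in the first telogen, at about day 23, and their titles call them wild type. Tamoxifen was injected in the Sox9CreER mice, both iKO and Het, and a YFP reporter marked recombined cells. K14Cre acts in the whole K14-expressing epithelium from development on, whereas Sox9CreER acts after tamoxifen in Sox9-expressing cells. Sex, age, strain and driver differ between several groups, and their part in a difference cannot be told apart from genotype or stage.

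The authors' deposited tables hold 1 pooled value per group in FPKM, fragments scaled to gene length and to the sequenced fragments of the library. No value per library is given, so no spread between mice can be shown, and the depth is unknown. Foxc1 had 1.32 FPKM in anagen iKO cells against 22.5 FPKM in anagen Het cells. It had 1.66 FPKM in telogen cKO cells and 3.17 FPKM in telogen iKO cells, against 27.5 FPKM in telogen WT cells. The bulge markers Cd34 (129 to 883 FPKM), Lgr5 (54.2 to 102 FPKM) and Sox9 (59.5 to 132 FPKM) were present in every group. Of 10 tested stem cell genes, Cd34, Nfatc1 and Foxc1 were called lower (q under 0.05) in anagen iKO than Het cells. Cd34, Lgr5 and Nfatc1 were called higher in telogen WT than anagen Het cells (of 10). Cd34, Nfatc1 and Foxc1 were called higher in telogen than anagen iKO cells (of 11). Within the second telogen, only Foxc1 and Tcf7l2 were called. The shares over all tested genes stand with each comparison below. Krt5, which all basal keratinocytes make, was listed at 0 in 5 groups and Krt15 in 3, so a listed 0 in these tables can be a failed estimate, but no chaperone was at 0. Among markers of other cells, the summed fibroblast markers spanned 125 to 2365 FPKM and the immune markers 16.9 to 298 FPKM, with the highest sums in the Shh-Het first telogen library. In the second telogen groups Col6a1 made up most of the fibroblast sum (123 to 210 FPKM), with Col3a1 and Dcn at or below 0.491 FPKM. Summed markers of differentiated epidermis and hair were 435 to 2907 FPKM, highest in telogen cKO cells. Summed endothelial, muscle and fat markers stayed at or below 37.5 FPKM, and the melanocyte sums lay between 23.2 and 46.0 FPKM, with Sox10, Ckm and Plin1 under 1 FPKM in every group. The melanocyte sum hides opposite shifts. Mitf had 38.5 FPKM in telogen WT against 6.80 FPKM in anagen Het cells, and Dct had 4.15 against 19.0 FPKM.

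Heat shock factor 1 binds inverted repeats of GAA in promoters, and the sequences below show where the chaperone genes carry such repeats. RefSeq windows of 250 bases before and 50 bases after the transcription start (build GRCm38.p6, matched by symbol) were at hand for 7 of the 10 genes, all but Hspa8, Hsp90aa1 and Hsp90ab1. Capitals mark 2 adjoining units, that is GAA and TTC with any 2 bases between them in either order (each order its own reverse complement), and 2 such pairs that overlap make a 3-unit motif, GAA, TTC, GAA or TTC, GAA, TTC with any 2 bases between units (each the reverse complement of the other). The 250 bases upstream of Hspa1a are shown whole because Hspa1a passed the test in all 4 tested comparisons. The Hspa1b stretch shows the same site in its twin copy, the Hspe1 stretch carries the longest run of repeats, and the last 2 show the sites of Dnaja1 and Hsph1.
Hspa1a, chr17:34972157-34972406, minus strand: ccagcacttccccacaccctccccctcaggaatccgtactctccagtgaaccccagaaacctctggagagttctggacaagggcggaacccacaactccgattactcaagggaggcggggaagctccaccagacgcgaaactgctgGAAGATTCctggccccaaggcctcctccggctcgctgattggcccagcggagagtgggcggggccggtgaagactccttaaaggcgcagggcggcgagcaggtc
Hspa1b, chr17:34959299-34959388, minus strand: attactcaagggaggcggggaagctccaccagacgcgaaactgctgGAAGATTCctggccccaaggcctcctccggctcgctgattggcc
Hspe1, chr1:55088053-55088082, plus strand: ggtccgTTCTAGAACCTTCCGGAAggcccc
Dnaja1, chr4:40722333-40722362, plus strand: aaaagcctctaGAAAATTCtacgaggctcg
Hsph1, chr5:149636351-149636380, minus strand: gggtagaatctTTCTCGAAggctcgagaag

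The 3-unit motif was in the windows of 3 of the 7 genes (Hsph1, Hspd1 and Hspe1), against 0.662% of 27025 genes with a window. The 2-unit motif was in 6 of the 7, all but Dnajb1, against 17% of genes. In Hspa1a and Hspa1b the 2-unit motif began 104 bases upstream of the start, in Dnaja1 124 bases, and in Hsph1 33 bases. These counts are not of independent genes. Hspd1 and Hspe1 lie head to head and share the same bases read on opposite strands, and the 250 upstream bases of Hspa1a and Hspa1b differ at 3 positions. The Hsph1 3-unit motif lies within the transcribed part, at base 37. The Hspe1, Dnaja1 and Hsph1 stretches overlap annotated exons of Hspd1, of Dnaja1 and Gm6297, and of Hsph1.

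Per kilobase, the constitutive chaperones stood far above the stress-induced ones in every group. Hspa8, the everyday HSP70, had 1366 FPKM in anagen iKO and 1038 FPKM in anagen Het cells, 1262 FPKM in telogen cKO, 1511 FPKM in telogen iKO and 1291 FPKM in telogen WT cells, and 959 and 863 FPKM in the anagen II and first telogen Shh-Het libraries. It ranked between place 88 and place 153 among the gene symbols above 0 FPKM in a group (17381 to 21862 by group), and its highest group was 1.75-fold above its lowest. Hsp90ab1, the constitutive HSP90, spanned 634 FPKM in the anagen II library to 901 FPKM in telogen iKO cells and was the steadiest of the 10, with a 1.42-fold span. The summed level of all 10 genes lay between 2406 and 3395 FPKM.

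The stress-induced HSP70 pair was lowest in telogen iKO cells. Hspa1a had 71.3 FPKM in anagen iKO and 112 FPKM in anagen Het cells, 69.1 FPKM in telogen cKO, 30.2 FPKM in telogen iKO and 61.1 FPKM in telogen WT cells, and 132 and 71.7 FPKM in the anagen II and first telogen libraries. Hspa1b had 157 and 232 FPKM in the anagen iKO and Het cells, 170, 69.1 and 186 FPKM in the telogen cKO, iKO and WT cells, and 212 and 141 FPKM in the anagen II and first telogen libraries. The telogen iKO value of either gene lay below all 6 other groups. Per kilobase, Hspa8 stood 15.2-fold above the sum of Hspa1a and Hspa1b in telogen iKO cells, against 2.79-fold to 5.98-fold in the other groups. Hspa1b exceeded Hspa1a 1.60-fold to 3.05-fold, but these neighbours on chromosome 17 (mm9 chr17:35106304-35109101 and chr17:35093374-35096183) share 82.3% of the 50-base stretches of their coding sequence, and no source used here says how reads that match both were assigned. Their separate levels are uncertain for that reason, and the sum of the pair was 99.3 FPKM in telogen iKO cells and up to 344 FPKM elsewhere.

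**Figure D1:**
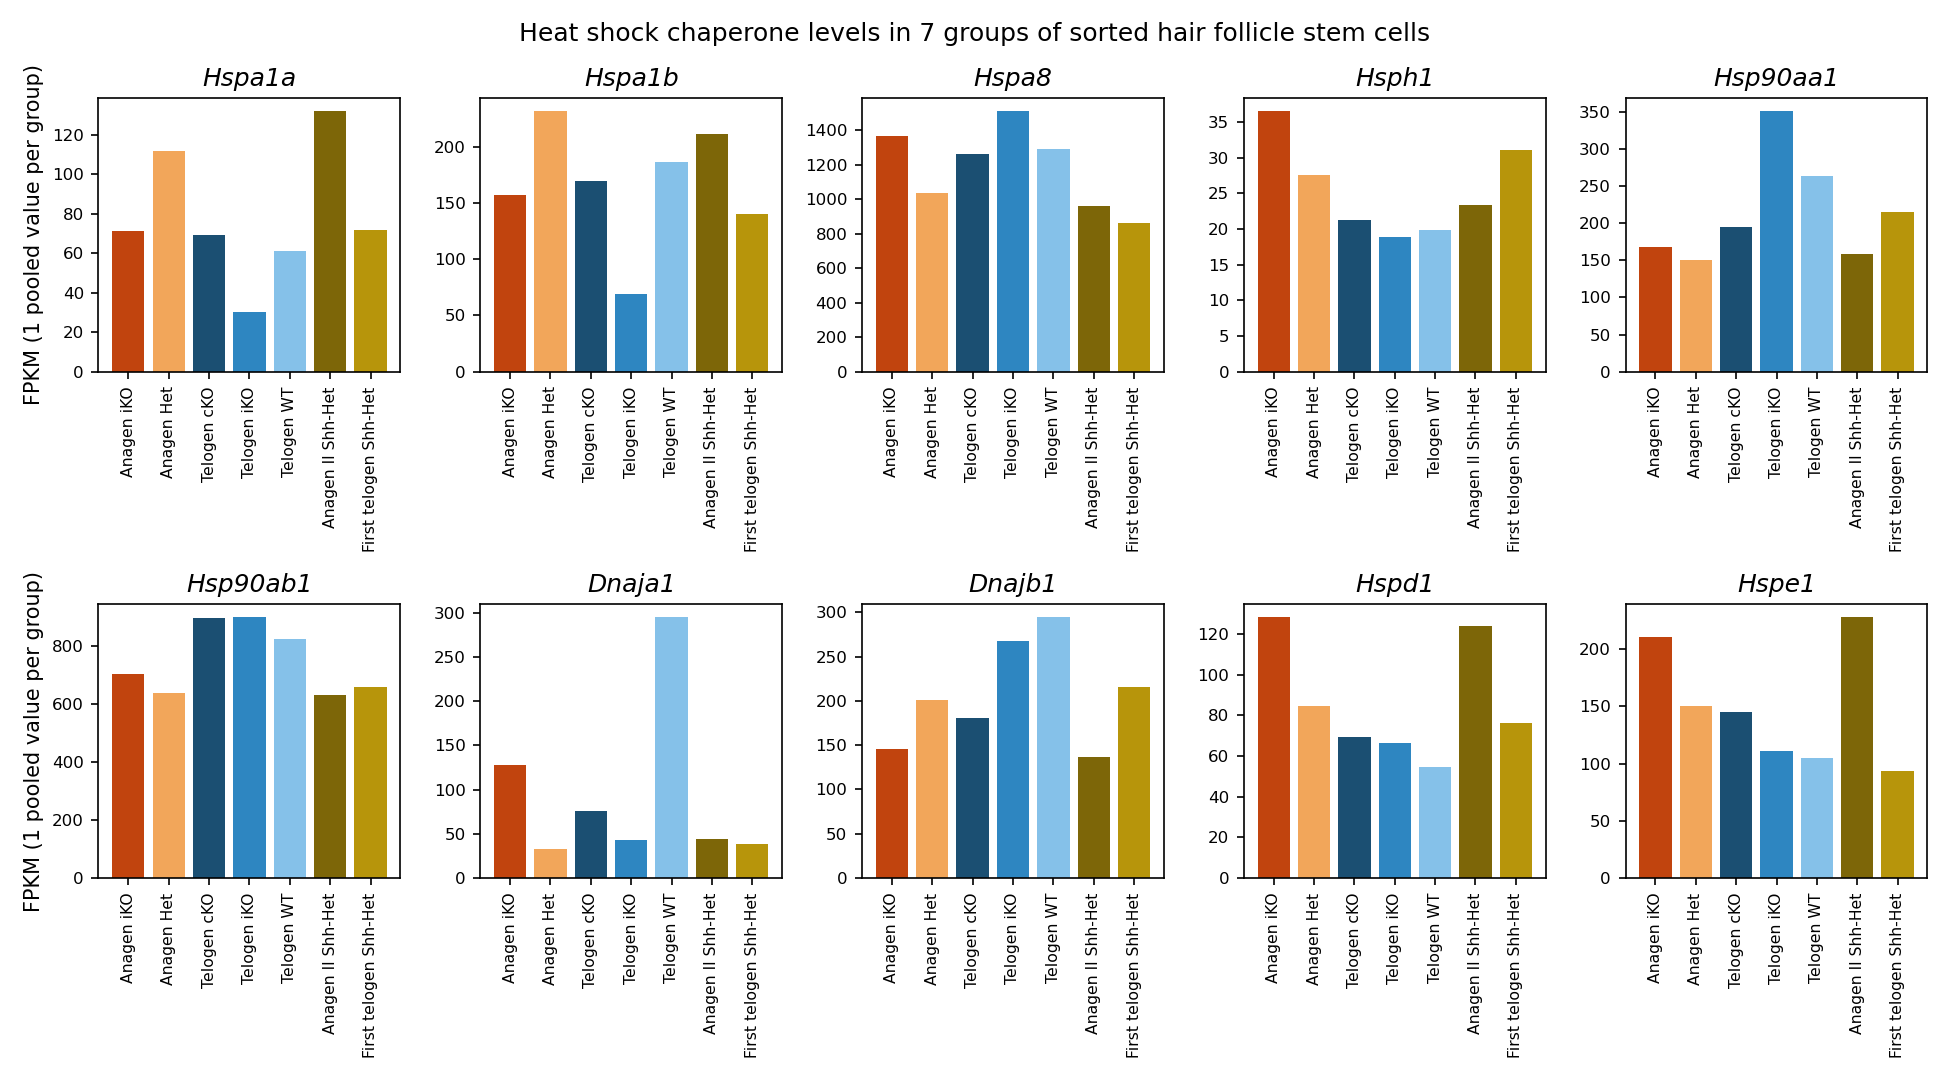
Level of each of the 10 chaperones in FPKM (vertical axis, own scale per gene, starting at 0) in the 7 groups; each bar is 1 pooled value without an error. Hspa1a and Hspa1b are lowest in telogen iKO cells (30.2 and 69.1 FPKM), Dnaja1 is highest in telogen WT (295 FPKM) and anagen iKO cells (128 FPKM), and Hspd1 and Hspe1 are highest in anagen iKO cells and the anagen II library.

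The co-chaperones and the inducible HSP90 had orders of their own. Hsp90aa1, the stress-responsive HSP90, had 168 and 150 FPKM in anagen iKO and Het cells, 194, 351 and 263 FPKM in telogen cKO, iKO and WT cells, and 158 and 215 FPKM in the anagen II and first telogen libraries. All 4 telogen groups but cKO exceeded 200 FPKM and no anagen group did, so Hsp90ab1 stood 4.62-fold above Hsp90aa1 in cKO but 2.57-fold in telogen iKO cells. Dnajb1, the J-domain partner that delivers aggregated clients to HSP70, had 146 and 201 FPKM in anagen iKO and Het cells, 180.2, 268 and 295 FPKM in telogen cKO, iKO and WT cells, and 137 and 216 FPKM in the anagen II and first telogen libraries. Hsph1, the HSP110 exchange factor, was the rarest of the set at 18.9 to 36.5 FPKM and was highest in anagen iKO cells.

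The mitochondrial pair had its larger values in anagen. Hspd1 had 128 and 84.5 FPKM in anagen iKO and Het cells, 69.4, 66.5 and 54.5 FPKM in telogen cKO, iKO and WT cells, and 124 and 76.2 FPKM in the anagen II and first telogen libraries. Hspe1, from the same bidirectional promoter on chromosome 1 (mm9 chr1:55134678-55144776 for Hspd1 and chr1:55144992-55148161 for Hspe1), had 211 and 149.9 FPKM, 145, 111 and 105 FPKM, and 228 and 93.6 FPKM in the same order of groups. Each anagen value of either gene lay above every telogen value. Hspe1 exceeded Hspd1 1.23-fold to 2.09-fold per kilobase.

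Between neighbours in these orders few differences passed a test, but the ordering itself makes neighbours the groups with the closest levels. The 5 replicated groups give 40 neighbouring pairs over the 10 genes, of which 24 could be tested outside Dnaja1 and the 2 comparisons that led to the set. By Cuffdiff's q in the authors' deposited table, 2 of the 24 passed 0.05: telogen iKO below telogen WT cells for Hspa1a, and telogen iKO below anagen iKO cells for Hspa1b. Of all tested genes, 12.9% passed between telogen iKO and WT cells and 14.9% between telogen iKO and cKO cells. Across stages, 22.7%, 25.9% and 25.4% passed for telogen cKO, iKO and WT cells against anagen Het cells, and 28.3%, 33.2% and 35.4% against anagen iKO cells. These shares are over genes not ordered by level, so they are no like measure for neighbours. The other 22 neighbours did not pass. The highest and lowest replicated groups of each tested gene were also picked by level, which favours a small q. Between them q was under 0.05 for all but Hspa8 and Hsp90ab1 (q = 0.285 and 0.260, Cuffdiff, authors' deposited table). The q was not adjusted for this picking, and no share over all genes picked in the same way was computed, so nothing is read from it.

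Dnaja1, the J-domain protein that partners HSP70 and HSP90 in steroid receptor folding, had the widest span of the 10. Its level was 128 FPKM in anagen iKO and 32.7 FPKM in anagen Het cells, 76.0 FPKM in telogen cKO, 42.4 FPKM in telogen iKO and 295 FPKM in telogen WT cells, and 43.6 and 38.2 FPKM in the anagen II and first telogen libraries. The highest value was 9.03-fold above the lowest, and the rank among gene symbols above 0 FPKM in a group moved between place 321 and place 2668. No other chaperone had its 2 highest values in the same 2 groups, telogen WT and anagen iKO, but Dnaja1 was chosen by its levels there. The other J-domain gene, Dnajb1, was also highest in telogen WT cells (295 FPKM). In anagen iKO cells Dnajb1 was lowest of the replicated groups (146 FPKM), and r of Dnaja1 with Dnajb1 over the 7 groups was 0.25. The level of Dnaja1 was 0.158 to 1.00 times that of Dnajb1.

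The Dnaja1 row covers mm9 chr4:40667187-40704918, 37732 bases, and the same locus carries the rows of Gm6297 and Smu1. The Dnaja1 gene itself spans 12498 bases in RefSeq. Smu1, a splicing factor gene, stayed between 24.1 and 30.8 FPKM and Gm6297 between 0.457 and 1.45 FPKM in all 7 groups, without the peaks of Dnaja1. RefSeq places the microRNA gene Mir207, 79 bases long, inside Dnaja1 (GRCm38.p6 chr4:40722917-40722995), and none of the 3 tables has a row for it. Whether fragments of Mir207 entered the Dnaja1 value was not tested.

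Among 9560 genes with a mean of at least 5 FPKM, the 5 whose log2(FPKM + 1) pattern was most like that of Dnaja1 over the 7 pooled groups were Tex261 (Pearson r 0.95), Wdfy2 (0.95), Mir181b-1 (0.94), Mir6972 (0.94) and Mir6913 (0.91). Tex261 had nearly the same level everywhere, 32.7 to 37.1 FPKM, whereas Wdfy2 had 29.2 FPKM in telogen WT and 17.9 FPKM in anagen iKO cells and 2.73 to 8.91 FPKM elsewhere. The 3 microRNA rows were above 0 in telogen WT and anagen iKO cells alone. Of 921 microRNA rows, 4 had that pattern, and other pairs of groups had 0 to 9 such rows. For Hspa1a the 5 most alike were 2310003H01Rik (r 0.98), Sdhaf1, Lrrc14 and Hadha (0.96 each) and Gusb (0.95). All were lowest in telogen iKO cells like Hspa1a itself, which follows from picking them by likeness. Their spans could be small, with Hadha at 45.0 FPKM in telogen iKO cells and 60.5 FPKM in the anagen II library. With 7 points that share libraries' depth and handling, such values describe these groups only. Among the members, r over the 7 groups was 0.91 for Hspa1a with Hspa1b, 0.87 for Hspd1 with Hspe1, −0.92 for Hspa1a with Hsp90aa1 and −0.91 for Hspd1 with Dnajb1.

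The 2 knockout comparisons that led to the set read as follows in the authors' deposited 2-group tables. Dnaja1 had 136 FPKM in anagen iKO against 34.6 FPKM in anagen Het cells, 3.92-fold higher, but 72.9 FPKM in telogen cKO against 285 FPKM in telogen WT cells, 3.91-fold lower. The other 9 genes differed much less. In anagen, Hspd1 had 136 FPKM in iKO against 89.6 FPKM in Het cells (log2 fold 0.60) and Hspe1 had 223 against 159 FPKM (0.49), while Hspa1a had 75.6 against 119 FPKM (−0.65), Hspa1b 166 against 246 FPKM (−0.56) and Dnajb1 155 against 213 FPKM (−0.46). In telogen, Hspd1 had 66.7 FPKM in cKO against 52.4 FPKM in WT cells (log2 fold 0.35), Hspe1 had 139 against 101 FPKM (0.46), Dnajb1 had 173 against 283 FPKM (−0.71) and Hsp90aa1 had 186 against 253 FPKM (−0.44). Hspa1a had 66.2 FPKM in cKO against 58.9 FPKM in WT cells and Hspa1b 162 against 180 FPKM. In these pooled values, with no test, the mitochondrial pair was larger and Dnajb1 smaller in anagen iKO and in telogen cKO cells. For telogen iKO over WT cells the log2 folds were nearer 0 for Hspd1 (0.29), Hspe1 (0.09) and Dnajb1 (−0.14). Hspa8, Hsph1, Hsp90aa1 and Hsp90ab1 had log2 folds of 0.14 to 0.41 in anagen, and Hspa8, Hsph1 and Hsp90ab1 of −0.04 to 0.12 in telogen.

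In the anagen comparison 4 of the 10 genes passed a deposited q of 0.05, where 10.3% of all tested genes did (5.18% higher and 5.08% lower), and in the telogen comparison 1 of the 10, where 6.62% did (3.75% higher and 2.87% lower). Since the set was drawn from these comparisons, nothing is read from the counts. The median log2 ratio (on FPKM + 1) of the 9 genes other than Dnaja1 was 0.16 in anagen (0.28 with it), beside −0.02 over all tested genes, and 0.09 in telogen (0.02 with it), beside 0.00. These are bulk samples, so fewer cells making a chaperone and less of its RNA per cell cannot be told apart here or below. All 26 listed cell cycle genes were called higher in anagen iKO cells, and 23 of the 26 were called higher in telogen cKO cells. Of 21 immediate early genes, which tissue dissociation is known to induce, 3 were called higher and 3 lower in anagen iKO cells, and 10 were called lower in telogen cKO cells, with Nr4a1 at 120 FPKM in cKO against 466 FPKM in WT cells. Of other cells' markers, 4 of 8 fibroblast genes were called lower in anagen iKO cells, with sums of 125 FPKM in iKO and 246 FPKM in Het cells, and 1 of 5 was called higher in telogen cKO cells, with sums of 213 FPKM in cKO and 247 FPKM in WT cells. The gene called in telogen was Col1a1, with 60.5 FPKM in cKO against 9.72 FPKM in WT cells, while Col6a1 had 118 against 201 FPKM and was not called. The part of these groups of genes in the chaperone values was not tested.

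**Figure D2:**
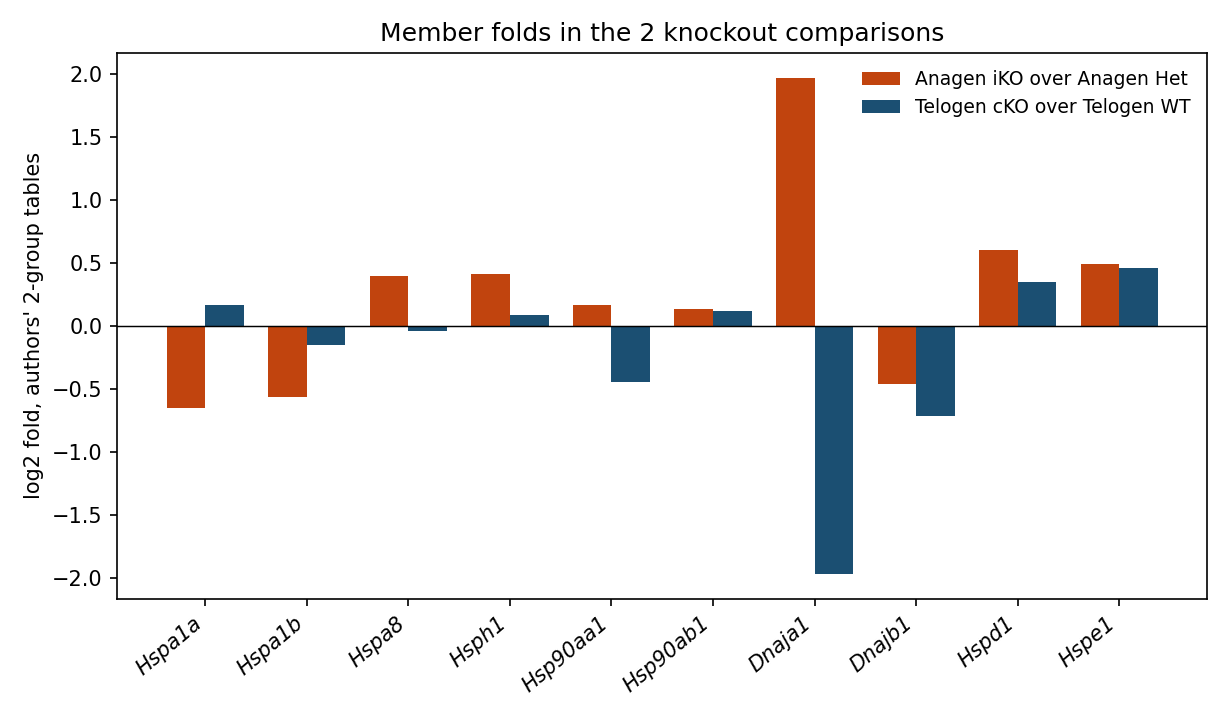
Log2 fold (vertical axis) of each chaperone in the authors' 2-group tables, anagen iKO over Het cells and telogen cKO over WT cells, with no error bars since the comparisons led to the choice of genes. Dnaja1 is 1.97 in anagen and −1.97 in telogen, and the other folds lie between −0.71 and 0.60.

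Telogen iKO cells were set against telogen WT cells, which also differed in age (60 days against 42 and 46 days), strain (mixed against Black Swiss), sex (males against 1 male and 1 female) and tamoxifen, so that none of these can be told apart from the loss of FOXC1. The iKO cells had less of both stress-induced HSP70 messages. Hspa1a had 30.2 FPKM in iKO against 61.1 FPKM in WT cells, and fell by 1.02 on the log2 scale (standard error 0.28, taken from the deposited statistic, q = 0.000444, Cuffdiff, authors' deposited table). Hspa1b had 69.1 FPKM in iKO against 186 FPKM in WT cells, and fell by 1.43 on the log2 scale (standard error 0.31, q = 0.000444, Cuffdiff, authors' deposited table). With these 2, 2 of 9 tested members fell and 0 rose, beside 5.88% and 7.01% of all tested genes (12.9% in either direction), and the 2 with a q under 0.05 were also the only members with an unadjusted p under 0.05. Here and below such counts are not of independent genes, since Hspa1a and Hspa1b share most of their coding sequence and Hspd1 and Hspe1 share a promoter. The other 7 had log2 folds of −0.14 to 0.42, of which Hsp90aa1 had 351 FPKM in iKO against 263 FPKM in WT cells (standard error 0.37, q = 0.261, Cuffdiff, authors' deposited table). Dnaja1 had 42.4 FPKM in iKO against 295 FPKM in WT cells, 6.96-fold lower, with no test since the WT libraries had served to choose it. The small heat shock protein gene Hspb1 fell too, with 1405 FPKM in iKO against 2686 FPKM in WT cells (log2 fold −0.94, q = 0.0166, Cuffdiff, authors' deposited table).

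Other folding genes in the same comparison are to be read beside the same 7.01% called higher and 5.88% called lower among all tested genes. Of 33 heat shock factor and co-chaperone genes, 3 were called higher (Fkbp5, Dnajb4 and Hspa12a) and 3 lower (Bag2, Hspb1 and Cryab). Fkbp5, an HSP90 co-chaperone that glucocorticoids are known to induce, had 21.9 FPKM in iKO against 1.77 FPKM in WT cells (log2 fold 3.63, q = 0.000444, Cuffdiff, authors' deposited table). Hsf1, which encodes the main heat shock factor, had 26.6 FPKM in iKO against 27.8 FPKM in WT cells, and Bag3, a nucleotide exchange factor of the stress response, had 35.7 against 35.2 FPKM. By Cuffdiff's q none of 13 TRiC and prefoldin genes and none of 14 further mitochondrial chaperone genes was called, with 1 and 0 of them at an unadjusted p under 0.05. Of 20 endoplasmic reticulum chaperone genes, Herpud1 was called higher and Sil1 lower. Beside these, 22 of 26 cell cycle genes were called higher, and 3 of 21 immediate early genes. Summed immediate early genes were 20766 FPKM in telogen iKO and 16821 FPKM in telogen WT cells. Of other cells' markers, 3 of 7 tested fibroblast genes were called lower (sums of 157 FPKM in iKO and 247 FPKM in WT cells), 1 of 8 immune genes higher (102 and 77.1 FPKM), and 3 of 7 genes of differentiated epidermis and hair higher and 1 lower (2448 and 1979 FPKM). Both fibroblast sums were mostly Col6a1, with 123 FPKM in iKO and 210 FPKM in WT cells. The part of all these markers in the chaperone values was not tested.

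Telogen iKO cells against anagen iKO cells give the stage within 1 genotype, though the mice were 30 days apart in age. The remaining Foxc1 differed too, with 3.17 FPKM in telogen against 1.32 FPKM in anagen iKO cells (q = 0.00156, Cuffdiff, authors' deposited table). Here 5 of 9 tested chaperones fell and 2 rose, beside 15.5% and 17.6% of all tested genes (33.2% in either direction). The 5 that fell include both of these linked pairs, Hspa1a with Hspa1b and Hspd1 with Hspe1. Hspa1a had 30.2 FPKM in telogen against 71.3 FPKM in anagen iKO cells, and fell by 1.24 on the log2 scale (standard error 0.26). Hspa1b fell by 1.18 (0.27), Hsph1 by 0.95 (0.28), Hspd1 by 0.95 (0.27) and Hspe1 by 0.92 (0.20), all with q = 0.000444 by Cuffdiff in the authors' deposited table. Hsp90aa1 rose, with 351 FPKM in telogen against 168 FPKM in anagen iKO cells (log2 fold 1.06, standard error 0.34, q = 0.000444, Cuffdiff, authors' deposited table). Dnajb1 rose as well, with 268 FPKM in telogen against 146 FPKM in anagen iKO cells (0.88, standard error 0.29, q = 0.00121, Cuffdiff, authors' deposited table). Hspa8 and Hsp90ab1 had log2 folds of 0.15 and 0.35 and did not pass (q = 0.832 and 0.452, Cuffdiff, authors' deposited table). Dnaja1 had 42.4 FPKM in telogen against 128 FPKM in anagen iKO cells, 3.02-fold lower, with no test. The median log2 ratio of the 9 genes other than Dnaja1 was −0.92, beside 0.01 over all tested genes.

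Other folding genes in the same comparison are to be read beside the same 17.6% called higher and 15.5% called lower among all tested genes. Of the 33 heat shock factor and co-chaperone genes, 9 were called lower and 5 higher. Hspa4, an HSP110 relative of Hsph1, had 30.6 FPKM in telogen against 58.6 FPKM in anagen iKO cells (log2 fold −0.94), while Bag3 had 35.7 against 18.2 FPKM (0.97) and Hspb8, its small heat shock protein partner, had 256 against 63.0 FPKM (2.02), all with q = 0.000444 by Cuffdiff in the authors' deposited table. Hsf1 had 26.6 FPKM in telogen against 24.6 FPKM in anagen iKO cells and was not called. Of 13 TRiC and prefoldin genes 4 were called lower and 1 higher, and of 20 endoplasmic reticulum chaperone genes 10 lower and 2 higher. Of 14 further mitochondrial chaperone genes 1 was called lower and 1 higher, and Hspa9, the mitochondrial HSP70, had 80.6 FPKM in telogen against 84.2 FPKM in anagen iKO cells. All 26 cell cycle genes were called lower and 20 of 21 immediate early genes higher, with summed immediate early levels of 20766 FPKM in telogen and 1987 FPKM in anagen iKO cells. Markers of other cells moved as well. Of 8 tested fibroblast genes 3 were called lower and 2 higher, with Col3a1 at 0.327 FPKM in telogen against 14.01 FPKM in anagen iKO cells and Dcn at 0.363 against 14.01 FPKM, though the summed list was 157 FPKM in telogen and 125 FPKM in anagen iKO cells. Of 5 endothelial and pericyte genes 4 were called lower (sums of 0.355 FPKM in telogen and 5.08 FPKM in anagen iKO cells), and of 9 immune genes 5 higher and 1 lower (102 and 26.1 FPKM). Of 8 genes of differentiated epidermis and hair 6 were called higher and 2 lower (2448 and 593 FPKM). What part these had in the chaperone values was not tested.

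**Figure D3:**
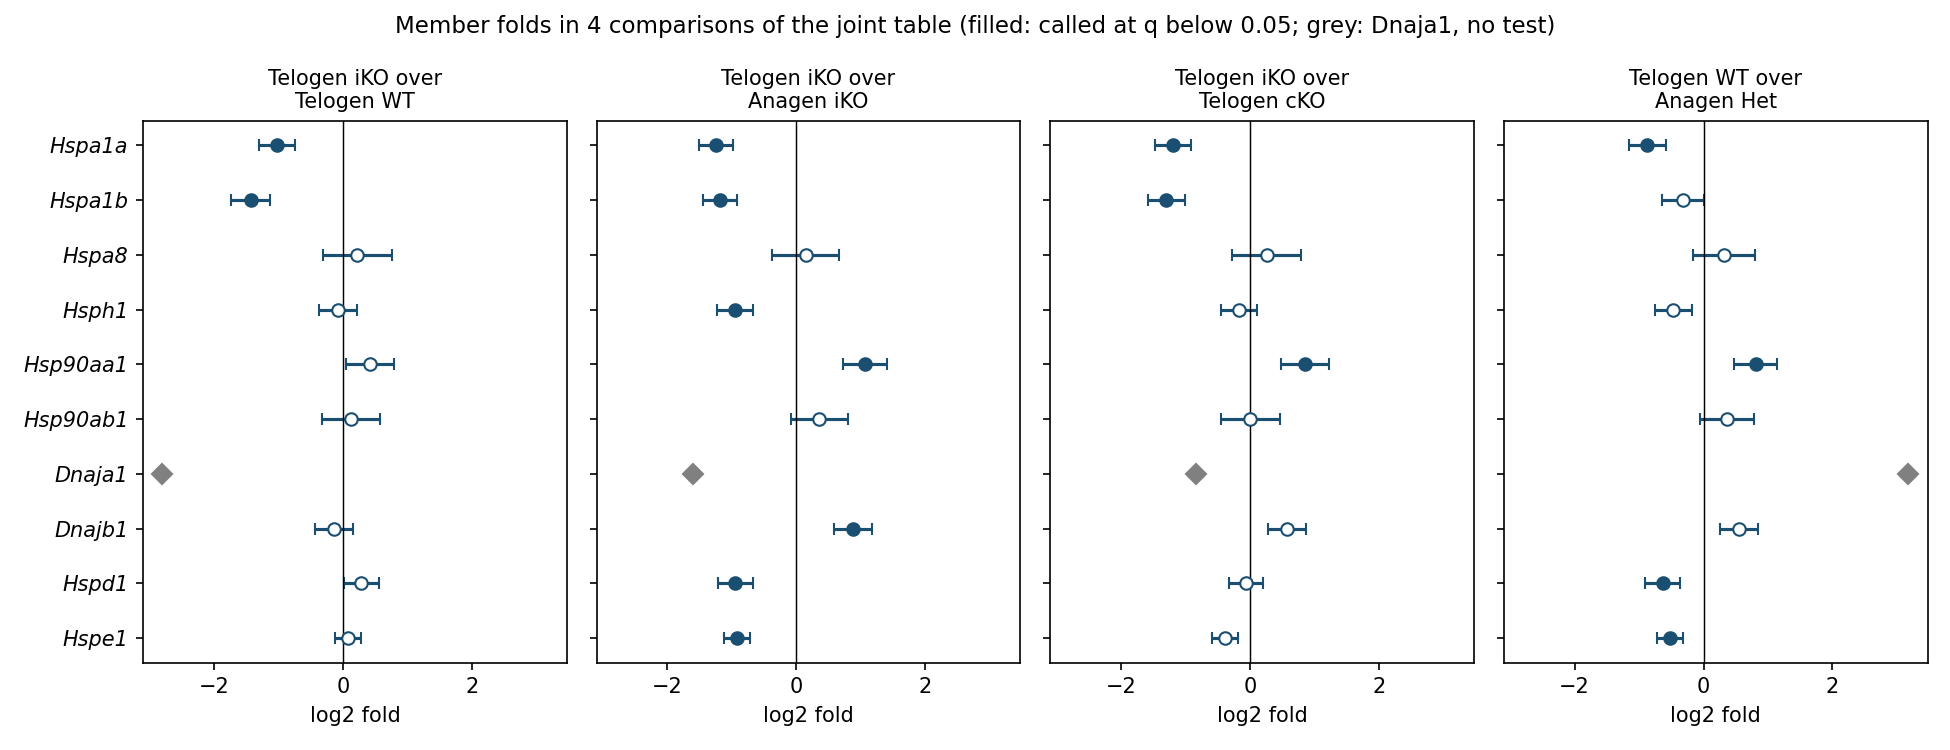
Log2 fold (horizontal axis) of each chaperone in 4 comparisons of the joint table, each with 2 libraries per group; bars are 1 standard error from the deposited statistic, filled points passed q 0.05, open points did not, and grey diamonds are Dnaja1, given with no test. Hspa1a lies below 0 with a filled point in all 4 comparisons, and Hsp90aa1 lies above 0 in all 4, filled in 3.

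Telogen WT cells against anagen Het cells set the control cells of either stage side by side. Strain, age, sex, tamoxifen and 1 Foxc1 allele differed too, and none of these can be told apart from stage. Of 9 tested chaperones 3 fell and 1 rose, beside 11.9% and 13.5% of all tested genes (25.4% in either direction). Hspa1a had 61.1 FPKM in WT against 112 FPKM in Het cells, and fell by 0.87 on the log2 scale (standard error 0.28, q = 0.00156, Cuffdiff, authors' deposited table). Hspd1 fell by 0.63 (standard error 0.27, q = 0.00884) and Hspe1 by 0.52 (0.20, q = 0.0387), by Cuffdiff in the authors' deposited table. Hsp90aa1 rose, with 263 FPKM in WT against 150 FPKM in Het cells (0.81, standard error 0.33, q = 0.00758, Cuffdiff, authors' deposited table). Dnajb1 (0.55, q = 0.0595), Hsph1 (−0.47, q = 0.0781) and Hspa1b (−0.31, q = 0.409) did not pass by Cuffdiff in the authors' deposited table. Dnaja1 had 295 FPKM in WT against 32.7 FPKM in Het cells, 9.03-fold higher, with no test. These libraries are not those of the stage comparison in iKO cells, and the difference between the 2 stage comparisons was not tested.

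The lists in this comparison are to be read beside the same 13.5% called higher and 11.9% called lower among all tested genes. Hspb1 rose here, with 2686 FPKM in WT against 1430 FPKM in Het cells (log2 fold 0.91, q = 0.0191, Cuffdiff, authors' deposited table), and of 32 tested heat shock factor and co-chaperone genes 6 were called higher and 2 lower. Hspb8 had 320 FPKM in WT against 108 FPKM in Het cells and Hspa4 had 33.8 against 47.9 FPKM (q = 0.000444 and 0.0473, Cuffdiff, authors' deposited table). Of 13 TRiC and prefoldin genes 2 were called lower and 1 higher, and of 20 endoplasmic reticulum chaperone genes 5 lower and 3 higher. By Cuffdiff's q 0 of 14 further mitochondrial chaperone genes were called, with 0 at an unadjusted p under 0.05. Beside these, 23 of 26 cell cycle genes were called lower and 19 of 21 immediate early genes higher, with summed immediate early levels of 16821 FPKM in WT and 2485 FPKM in Het cells. Of 8 tested fibroblast genes 4 were called lower and 1 higher, with Col3a1 at 0.382 FPKM in WT against 28.7 FPKM in Het cells and Dcn at 0.305 against 18.2 FPKM, while the summed list was 247 FPKM in WT and 246 FPKM in Het cells. All 5 tested endothelial and pericyte genes were called lower (sums of 1.11 FPKM in WT and 7.66 FPKM in Het cells), and 2 of 9 immune genes higher (77.1 and 16.9 FPKM). Of 8 genes of differentiated epidermis and hair 4 were called higher and 3 lower (1979 and 465 FPKM), among them Krt10 with 1457 FPKM in WT against 208 FPKM in Het cells, Lor with 129.6 against 7.86 FPKM, and the root sheath keratin gene Krt71 with 0.641 against 59.2 FPKM. The part of these in the chaperone values was not tested.

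Telogen iKO cells against telogen cKO cells compare the 2 ways of removing FOXC1, but the groups differ in more than the driver. Age (60 days against 42 and 46 days), strain, sex and tamoxifen differed too, and none can be told apart from the way of removal. Hspa1a had 30.2 FPKM in iKO against 69.1 FPKM in cKO cells, and fell by 1.20 on the log2 scale (standard error 0.28, q = 0.000444, Cuffdiff, authors' deposited table). Hspa1b had 69.1 FPKM in iKO against 170 FPKM in cKO cells, and fell by 1.29 (standard error 0.29, q = 0.000444, Cuffdiff, authors' deposited table). Hsp90aa1 rose, with 351 FPKM in iKO against 194 FPKM in cKO cells (log2 fold 0.85, standard error 0.36, q = 0.00491, Cuffdiff, authors' deposited table). These 3 of 9 stand beside 7.35% of all tested genes called lower and 7.53% called higher (14.9% in either direction). Dnajb1 had 268 FPKM in iKO against 180.2 FPKM in cKO cells and did not pass (0.57, standard error 0.30, q = 0.0514, Cuffdiff, authors' deposited table). The log2 folds of Hspa8, Hsp90ab1, Hsph1, Hspd1 and Hspe1 lay between −0.38 and 0.26, none of them called. Dnaja1 had 42.4 FPKM in iKO against 76.0 FPKM in cKO cells. Of 33 heat shock factor and co-chaperone genes 5 were called higher and 2 lower, among them Hsf2 with 12.2 FPKM in iKO against 7.35 FPKM in cKO cells (log2 fold 0.74, q = 0.0060, Cuffdiff, authors' deposited table). By Cuffdiff's q 0 of 13 TRiC and prefoldin genes and 0 of 14 further mitochondrial chaperone genes were called, with 1 and 0 at an unadjusted p under 0.05, and of 20 endoplasmic reticulum chaperone genes 3 were called higher and 1 lower. Of 21 immediate early genes 16 were called higher and of 26 cell cycle genes 11 lower, with summed immediate early levels of 20766 FPKM in iKO and 6910 FPKM in cKO cells. Of other cells' markers, 1 of 7 tested fibroblast genes was called lower (sums of 157 FPKM in iKO and 213 FPKM in cKO cells), 4 of 8 immune genes higher (102 and 82.9 FPKM), and 1 of 7 genes of differentiated epidermis and hair higher and 1 lower (2448 and 2907 FPKM). The part of all these was not tested. The comparisons of telogen iKO cells with WT, anagen iKO and cKO cells share the 2 telogen iKO libraries, so the low Hspa1a and Hspa1b values in them rest on the same mice.

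**Figure D4:**
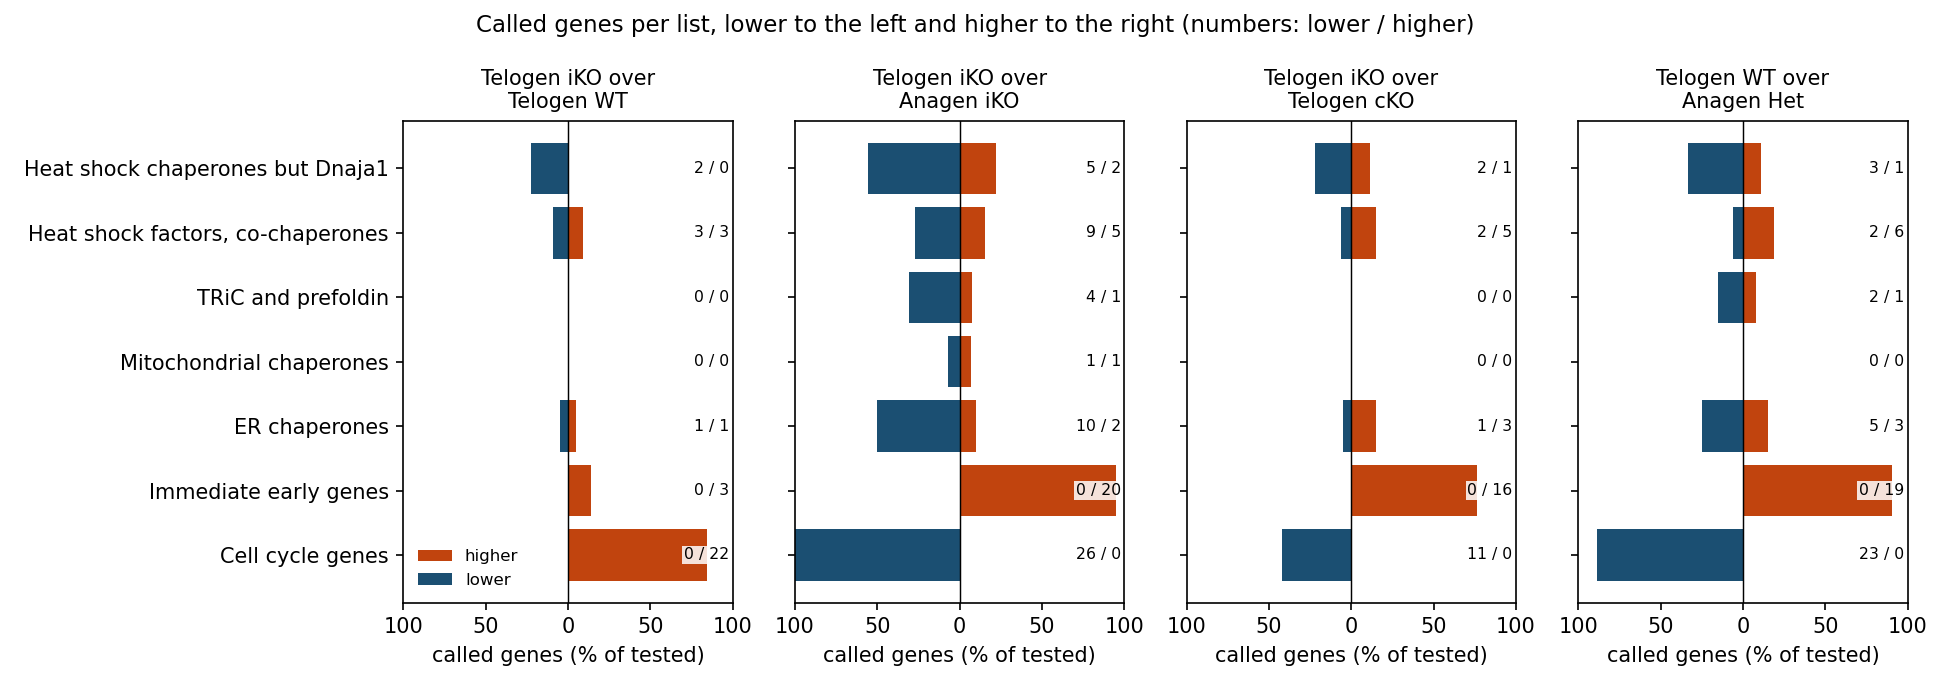
Share of tested genes called lower (bars to the left) and higher (bars to the right) in percent, for the 9 tested chaperones and 6 other lists in the same 4 comparisons, with the counts printed at the right edge as lower / higher. Cell cycle genes are called higher in telogen iKO over WT cells (22) and lower in the other 3 panels (26, 11 and 23).

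The Shh-Het libraries, 1 in anagen II and 1 in the first telogen, allow no test. The mitochondrial pair and the stress-induced HSP70 pair were larger in anagen II. Hspe1 had 228 FPKM in anagen II against 93.6 FPKM in first telogen, a difference of 1.27 on the log2(FPKM + 1) scale, which understates changes of low genes. Hspd1 had 124 against 76.2 FPKM (0.69), Hspa1a 132 against 71.7 FPKM (0.87) and Hspa1b 212 against 141 FPKM (0.59). Dnajb1 had 137 FPKM in anagen II against 216 FPKM in first telogen (−0.66). These 4 larger and 1 smaller values passed 1.5-fold, as did 12.5% and 26.4% of the 17402 genes compared (38.9% in either direction), whose median difference was −0.26. Hsp90aa1 (−0.44), Hsph1 (−0.40), Dnaja1 (0.19), Hspa8 (0.15) and Hsp90ab1 (−0.06) did not pass 1.5-fold. The first telogen library also held more of other cells' markers, with summed fibroblast markers of 1133 FPKM in anagen II and 2365 FPKM in first telogen, and the part of these in the chaperone values was not tested.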

How the data were processed

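Messenger RNA (TruSeq mRNA libraries of sorted cells, per the labels' protocols) was compared between 7 groups. TopHat, Cufflinks, Cuffdiff and build mm9 are named in the submitters' processing notes, without versions or settings in the sources used here. The authors deposited 3 Cuffdiff tables, 1 for anagen, 1 for telogen and 1 joint table of all 21 comparisons, each with 1 pooled FPKM value per group, a log2 fold change, a test statistic score and p-values and q-values. The authors' q in the joint table is adjusted across the whole table, and the smallest deposited p is 5e-05. Depth is unknown. The tested groups had 2 libraries each, labelled as separate mice. The sources used here do not say how Cuffdiff modelled the spread between them, so p-values are not a measure of each gene's own spread between mice.

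Calls were made where the authors' q was under 0.05. Folds were turned so that the first named group is on top, the approximate standard error is the log2 fold over the table's statistic, and list medians used log2(FPKM + 1). Levels are from the joint table. Table starts count from 0 and were raised by 1. A symbol on several rows kept the row with the highest mean. Genes were counted with Python 3.11.15, pandas 2.3.3 and numpy 2.4.6, and the counting was tested on simulated tables.

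All 10 members were named, with Foxc1, the 5 genes most like Dnaja1 and Hspa1a, up to 4 genes per list with the lowest p, and Hsf1, Hsf2, Hspb1, Bag3, Hspa5, Hspa9 and Hspa4. Smu1, Gm6297, Mir207 and other called co-chaperones were named after their values were seen. The members and lists were chosen with earlier results of these data known. No set test was made. Alternatives were other q thresholds, pseudocounts, centring, the joint table, a filter on low values, summed rows and adjustment within a comparison.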

Additional observations from a re-analysis of the deposited data

How the results depend on the processing

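No paired analysis was possible because the tables hold 1 pooled value per group and carry no replicate number, and for the same reason no library could be left out. The count of members passing q 0.05 changed by over 1.5 times only in the 2 comparisons that led to the set: at q 0.01 it was 2 in place of 4 in anagen iKO against Het cells, and 0 in place of 1 in telogen cKO against WT cells by Cuffdiff (3 members had an unadjusted p under 0.05), where the joint table gave 2, adding Dnajb1. The cause was not tested. The other 49 settings of counts and medians, among them adjustment within a comparison, centring on all genes, a filter at 1 FPKM and pseudocounts of 0.1 and 5, kept counts within 1.5 times and medians within 0.1. Of 180 member values under other pseudocounts or centring, none of the called ones changed sign and 176 moved by 0.1 or less on the log2 scale. The 4 that moved further did so at a pseudocount of 5. They were Dnaja1, with 1.83 in anagen iKO over Het, −2.66 in telogen iKO over WT and 2.99 in telogen WT over anagen Het cells, and Hsph1, with −0.80 in place of −0.92 in telogen iKO over anagen iKO cells. For the heat shock motifs, the upstream part of the window alone, a choice made after seeing the data, gave 2 members with the 3-unit motif, against 0.514% of genes, and 6 with the 2-unit motif, against 14.5%. With pooled values and unknown depth, the spread between mice limits every statement above.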
